A study of Mus musculus with 28 samples.

Results

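The cilium genes described here are 26 genes of the mouse that build or regulate the cilium, taken from 37974 genes of the single-cell table by their symbols. A gene was included where its symbol was *Foxj1* or began with Dnaaf or Cfap, or with Dnah, Drc, Tekt, Ift or Bbs and a digit, and it was then looked up by its Ensembl identifier in the tissue table of 36358 genes, which held 22 of the 26. The rule reads symbols and no measured value. The 26 were *Foxj1*, 5 tektins (*Tekt1* to *Tekt5*), 12 intraflagellar transport (Ift) genes and 8 Bardet-Biedl syndrome (Bbs) genes. The cell table carried none of the axonemal dynein, assembly factor, Cfap or Drc genes under these symbols, because it lists them under older names. By identifier, 55 further protein-coding genes have such a family name in the GENCODE annotation of GRCm38, 51 of them in the cell table, and they are given below as a comparison set, called the genes listed under other symbols.

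RNA was sequenced from the lateral ventricle wall next to the striatum (the ependymal zone with the subependymal and subventricular zone, EZ-SEZ/SVZ) of C57BL/6 mice. The tissue experiment had 3 samples from mice aged 18 months and 3 from mice aged 3 weeks. The single-cell experiment had 22 cells prepared with Smart-seq2, a full-length cDNA method, after sorting on size and complexity. The study picked single cells at random from the sorted fraction and kept those in which quantitative PCR of the cDNA found stem or progenitor cell markers, among them *Prom1*, *Gfap*, *Dlx2* and *Dcx*, so that other cell types were not sampled evenly. They comprised 6 Prom1+ cells (3 from 1 month and 3 from 24 months), 7 Gfap+ cells (2 and 5) and 9 Dlx2+/Dcx+ cells (5 and 4). The labels name no transgene, no animal was named for any cell, and the 3 subpopulations had been defined by the study on these same transcriptomes.

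A cilium is a microtubule extension of the cell that is built and maintained by intraflagellar transport, in which IFT-B complexes carry cargo to the tip with kinesin-2 and IFT-A complexes return with dynein-2. The BBSome, a complex of Bbs proteins, moves membrane proteins in and out of the cilium. Motile cilia add an axoneme with dynein arms, and the tektins are filament proteins bound to its doublet microtubules, while Foxj1 is the transcription factor that switches on the motile programme. In the ventricle wall, ependymal cells carry tufts of motile cilia that move cerebrospinal fluid, whereas neural stem cells, astrocytes and many neurons carry a single primary cilium that needs intraflagellar transport but no motile axoneme.

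Promoter sequence is shown first because genes of the ciliary programme are known targets of RFX factors, which bind the X-box. RefSeq promoter windows of GRCm38.p6, from 250 bases before to 50 after a gene start, were found for 22 of the 26 genes (25 windows). An X-box was searched as GTTNCC and GGNAAC separated by 0 to 3 bases, its half-site as GTTGCC on either strand, and the forkhead core as TGTTTAC on either strand, and a half-site may lie within an X-box. At least 1 half-site stood in 48% of the cilium gene windows, against 12.5% of all 32851 windows, and in 36.7% of the windows of the genes listed under other symbols. The X-box stood in 2 of the 25 windows, those of *Bbs7* and *Ift57*, against 0.804% of all windows. The forkhead core stood in 1 window, that of *Tekt3*, or 4% against 3.65% of all windows. These are matches of letters and not measured binding.

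The 250 bases before the gene start are printed 5′ to 3′ for the pair with an X-box and for 3 genes with half-sites before the start, with the matches in capitals. They are *Bbs7* (chr3:36613390-36613639, minus strand), *Ift57* (chr16:49699044-49699293, plus strand), *Tekt1* (chr11:72361883-72362132, minus strand), *Tekt2* (chr4:126325689-126325938, minus strand) and *Ift140* (chr17:25015836-25016085, plus strand).
Bbs7: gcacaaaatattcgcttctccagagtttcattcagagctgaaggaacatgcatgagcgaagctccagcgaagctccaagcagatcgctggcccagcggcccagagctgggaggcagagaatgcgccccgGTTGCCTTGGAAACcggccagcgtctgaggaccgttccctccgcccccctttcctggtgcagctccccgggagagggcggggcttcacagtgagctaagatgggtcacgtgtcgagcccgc
Ift57: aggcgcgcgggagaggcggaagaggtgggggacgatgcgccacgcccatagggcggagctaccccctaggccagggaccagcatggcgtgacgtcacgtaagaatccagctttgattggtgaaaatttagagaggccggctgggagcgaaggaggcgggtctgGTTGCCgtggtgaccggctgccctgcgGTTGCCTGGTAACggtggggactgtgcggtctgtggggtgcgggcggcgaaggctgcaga
Tekt1: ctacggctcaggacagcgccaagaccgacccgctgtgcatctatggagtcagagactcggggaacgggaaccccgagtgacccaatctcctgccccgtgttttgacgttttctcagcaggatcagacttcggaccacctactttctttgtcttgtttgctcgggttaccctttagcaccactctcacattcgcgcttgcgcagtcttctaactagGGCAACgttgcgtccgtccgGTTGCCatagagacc
Tekt2: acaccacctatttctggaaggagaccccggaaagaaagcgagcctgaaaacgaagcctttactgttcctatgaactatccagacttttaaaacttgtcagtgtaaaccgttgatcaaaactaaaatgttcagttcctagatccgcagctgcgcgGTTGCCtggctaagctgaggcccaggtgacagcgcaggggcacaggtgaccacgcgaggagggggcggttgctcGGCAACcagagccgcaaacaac
Ift140: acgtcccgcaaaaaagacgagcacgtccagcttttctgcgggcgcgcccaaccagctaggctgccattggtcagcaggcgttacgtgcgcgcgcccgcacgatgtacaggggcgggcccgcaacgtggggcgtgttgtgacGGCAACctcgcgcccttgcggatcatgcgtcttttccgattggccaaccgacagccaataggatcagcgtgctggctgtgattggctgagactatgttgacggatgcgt
Gene starts here are those of the RefSeq windows, whereas the gene positions given below come from GENCODE. By the GENCODE positions the printed stretch of *Tekt1* lies wholly within the gene, and those of *Bbs7* and *Ift57* lie partly within it. The X-box of *Bbs7* began 121 bases before the gene start and that of *Ift57* 60 bases before it. *Ift57* held a further half-site 87 bases before the start. *Tekt1* and *Tekt2* each held a pair of half-sites in opposite orientation, which in *Tekt1* began 35 and 15 bases before the start. *Tekt1* has 2 windows and *Tekt2* has 3, and for each gene a window with the most matches is printed. Another window of each gene held no half-site. The half-sites of *Ift88* and *Bbs5* lay after the gene start, 21 and 42 bases into the gene.

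In the tissue all 22 genes were detected, and 21 passed the filter of at least 1 FPKM (fragments per kilobase of a transcript after division by library depth) in at least 3 of the 6 samples. The exception was *Tekt3*, at 0.745, 0.814 and 1.05 FPKM at 18 months and 0.436, 0.666 and 0.299 at 3 weeks. *Bbs1*, *Bbs4*, *Bbs10* and *Ift27* were not analysed here in the tissue. The mean FPKM over the 6 samples ranged from 1.32 for *Tekt2* to 47.3 for *Foxj1*, and 15 of the 21 genes lay above the median of the 12287 genes tested. *Foxj1* was followed by *Ift20* at 35.8, *Ift57* at 22.3, *Bbs2* at 13.9, *Ift46* at 13.8 and *Ift74* at 11.9 FPKM. *Bbs2* and *Ift46* did not differ beyond their spread, nor did *Ift46* and *Ift74*, whose ranges over samples overlapped.

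**Figure D1:**
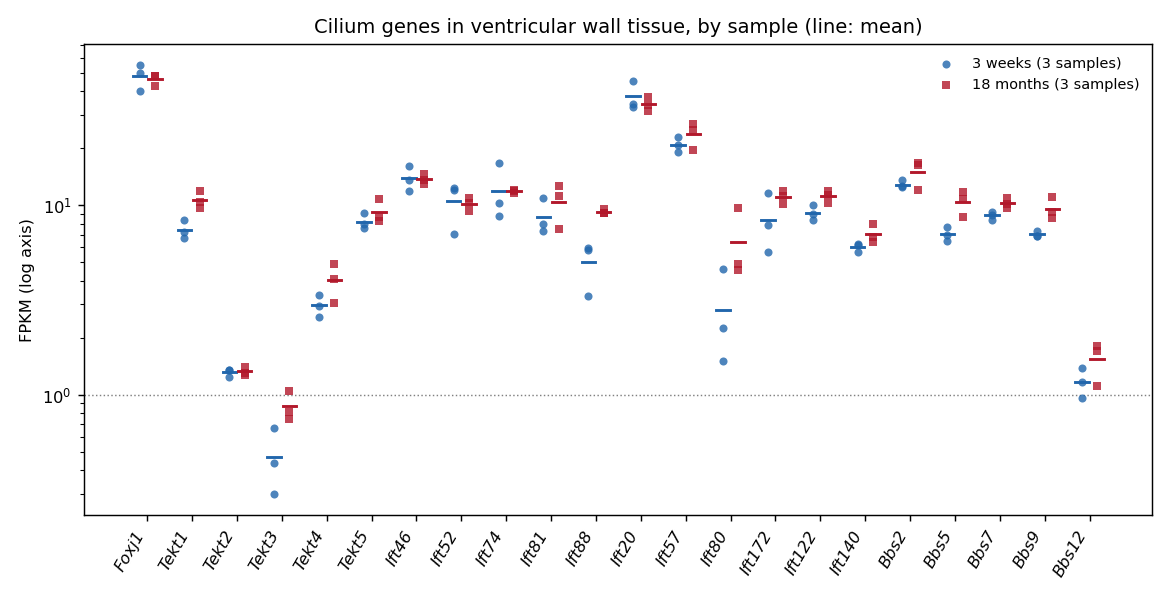
FPKM of the 22 cilium genes in each tissue sample on a log axis, with circles for 3 weeks, squares for 18 months, a line at each mean and a dotted line at 1 FPKM. *Foxj1* stands highest and *Tekt3* lowest, and the 18-month squares of *Ift88* lie above all its 3-week circles.

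The tissue comparison asked how RNA levels in the ventricle wall differ between young and aged mice. None of the 21 cilium genes tested passed the study's limits of an unadjusted p under 0.05 with an absolute log2 fold change above 1 in limma, against 3.9% of all genes tested. None had a Benjamini-Hochberg adjusted p under 0.05 either, against 4.92% of all genes. At an unadjusted p under 0.05 alone, 5 genes were past the limit, *Ift88*, *Tekt1*, *Bbs5*, *Bbs9* and *Ift80*, all higher at 18 months, against 15.4% of all genes that were higher by this measure. This count was 3 with quantile normalization and 3 to 6 with 1 sample left out. The 18-month samples all lay above the 3-week samples in 7 of the 21 genes and below them in none, against 20.9% and 12.2% of all genes. The median log2 fold change, computed on log2(FPKM + 1) with positive values for higher levels at 18 months, was 0.20 over the 21 genes and 0.09 over all genes tested, and 17 of the 21 were above 0 against 58.8% of all genes. In tissue, fewer cells of a type and less RNA per cell cannot be told apart.

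*Foxj1* (chr11:116330704-116335399, minus strand) was at 48.3, 48.3 and 42.5 FPKM at 18 months and at 39.9, 50.1 and 54.7 at 3 weeks. The samples of the 2 ages overlapped, and the log2 fold change was -0.05 with a 95% interval from -0.41 to 0.32 (limma adjusted p = 0.876). The direction of this difference turned when the third sample of either age was left out, at 0.01 without the 18-month sample and 0.05 without the 3-week sample.

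Among the tektins, *Tekt1* (chr11:72344722-72362442, minus strand) was at 9.63, 11.9 and 10.4 FPKM at 18 months and at 6.73, 8.32 and 7.22 at 3 weeks. The 18-month samples of *Tekt1* all lay above the 3-week samples, and its log2 fold change was 0.47 ± 0.14 (SE, n = 3 per age, limma adjusted p = 0.118). *Tekt5* had mean levels of 9.24 ± 1.36 FPKM at 18 months and 8.20 ± 0.75 at 3 weeks (SD, n = 3), and its samples overlapped. *Tekt4* was lower, at 4.01 ± 0.93 and 2.96 ± 0.40 FPKM (SD, n = 3), also with overlap. *Tekt2* was near the filter limit in both ages, from 1.24 to 1.40 FPKM over the 6 samples, and its log2 fold change was 0.01.

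The IFT-B core, the scaffold of the anterograde complex, was represented by *Ift46*, *Ift52*, *Ift74*, *Ift81* and *Ift88*. *Ift88*, whose loss is known to abolish cilia, was at 9.13, 9.08 and 9.55 FPKM at 18 months and at 5.78, 5.94 and 3.30 at 3 weeks. The groups did not overlap, the ratio of the means was 1.85, and the log2 fold change was 0.80 ± 0.21 (SE, n = 3 per age, limma adjusted p = 0.0956). *Ift88* lies at chr14:57424062-57517936 on the plus strand, and an annotated antisense gene within it did not exceed 0.0769 FPKM. The other IFT-B core genes had overlapping ages and log2 fold changes of -0.01 for *Ift46*, -0.01 for *Ift52*, 0.05 for *Ift74* and 0.23 for *Ift81*, which ranged from 0.09 without the third 18-month sample to 0.43 without the first. *Ift74* varied most in the young samples, at 16.7, 10.2 and 8.73 FPKM, against 11.6, 12.1 and 11.9 at 18 months.

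The peripheral IFT-B genes were *Ift20*, *Ift57*, *Ift80* and *Ift172*. *Ift20*, which also acts at the Golgi, was at 31.3, 37.1 and 33.7 FPKM at 18 months and at 34.3, 45.3 and 32.9 at 3 weeks, with a log2 fold change of -0.13 (limma adjusted p = 0.657). *Ift57* was at 23.8 ± 3.72 FPKM at 18 months and 20.9 ± 1.97 at 3 weeks (SD, n = 3), and the ages overlapped. *Ift80* had the largest fold change of the 21 genes. It was at 4.55, 9.66 and 4.88 FPKM at 18 months and at 2.25, 1.503 and 4.595 at 3 weeks, so that 1 young sample exceeded 1 old sample. Its log2 fold change was 0.98 ± 0.39 (SE, n = 3 per age, limma adjusted p = 0.202), just inside the fold limit, and it passed the study's limits at 1.30 without the third 3-week sample. The annotation places processed pseudogenes on the same strand within *Ift80* (chr3:68892499-69004570), and they reached 10.6 and 14.3 FPKM in the tissue, so that the value of *Ift80* is uncertain. *Ift172* was at 11.1, 10.2 and 11.9 FPKM at 18 months and at 7.89, 11.6 and 5.66 at 3 weeks, with a log2 fold change of 0.41 (limma adjusted p = 0.366). It was 0.19 without the third 3-week sample and 0.65 without the second.

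The IFT-A genes, which act in return transport, had small and separate ranges. *Ift122* was at 11.3, 11.9 and 10.3 FPKM at 18 months and at 8.94, 10.03 and 8.32 at 3 weeks, a log2 fold change of 0.27 (limma adjusted p = 0.253). *Ift140* was at 6.38, 7.93 and 6.84 FPKM at 18 months and at 6.26, 6.19 and 5.68 at 3 weeks, a log2 fold change of 0.19 (limma adjusted p = 0.410). In both genes every 18-month sample exceeded every 3-week sample, although the lowest old and the highest young sample lay close together.

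All 5 Bbs genes tested had a log2 fold change above 0, as did 58.8% of all genes tested. *Bbs5*, a BBSome subunit that binds membrane lipids, was at 8.70, 10.8 and 11.7 FPKM at 18 months and at 7.70, 6.47 and 6.93 at 3 weeks, with a log2 fold change of 0.50 ± 0.15 (SE, n = 3 per age, limma adjusted p = 0.120). *Bbs9*, a BBSome scaffold subunit, was at 9.19, 11.1 and 8.55 FPKM at 18 months and at 7.31, 6.92 and 6.87 at 3 weeks, with a log2 fold change of 0.39 ± 0.13 (SE, n = 3 per age, limma adjusted p = 0.148). *Bbs7*, another BBSome subunit, was at 9.63, 10.12 and 10.96 FPKM at 18 months and at 8.90, 9.23 and 8.37 at 3 weeks, with a log2 fold change of 0.19 (limma adjusted p = 0.345). These 3 genes had separate ranges. A processed pseudogene on the opposite strand within *Bbs9* reached 19.1 FPKM, and whether the libraries kept the strand is not given in the sources used here. *Bbs2* had the highest level of the family, at 15.03 ± 2.61 FPKM at 18 months and 12.9 ± 0.60 at 3 weeks (SD, n = 3), and a log2 fold change of 0.20. *Bbs12*, a chaperonin-like factor that helps to assemble the BBSome, was at 1.54 ± 0.38 and 1.17 ± 0.21 FPKM (SD, n = 3), and it overlaps *Cetn4* on the other strand, a gene that reached 32.8 FPKM.

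**Figure D2:**
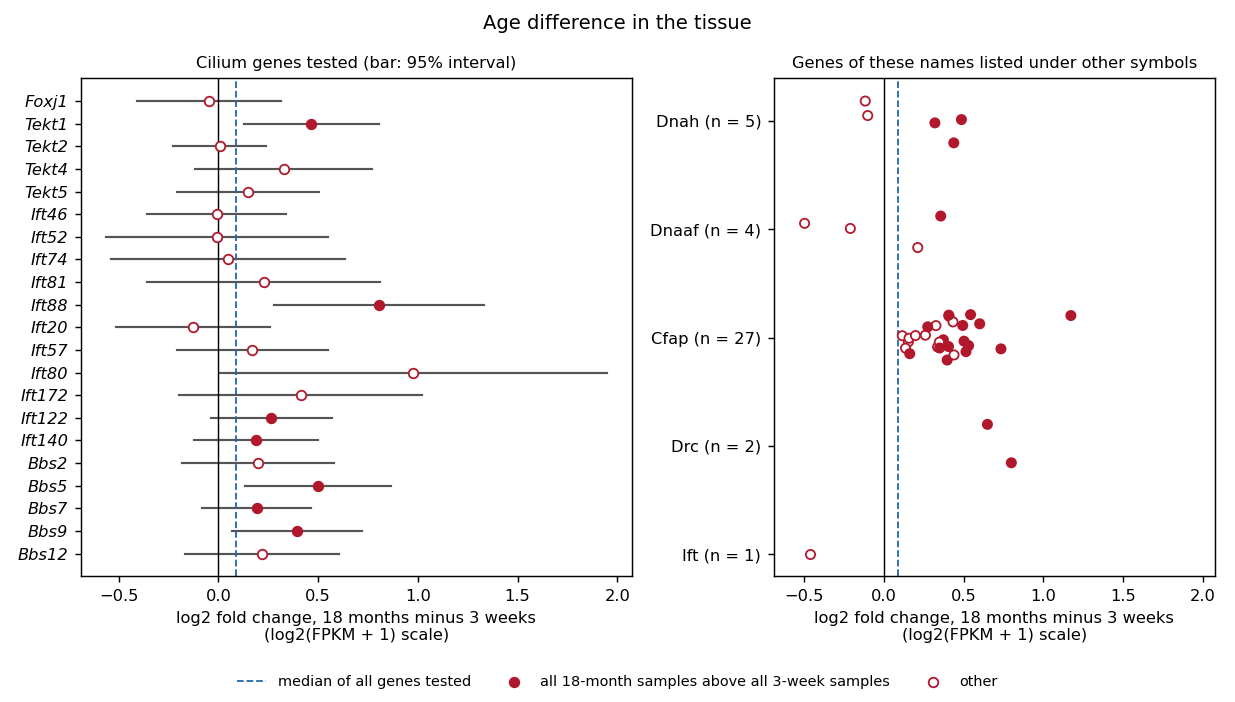
Log2 fold change in the tissue, 18 months minus 3 weeks, for the 21 cilium genes with their 95% intervals (left) and for the 39 tested genes listed under other symbols, by family (right). Filled points are genes whose 18-month samples all exceed their 3-week samples, and the dashed line is the median of all genes tested, 0.09. *Ift80* and *Ift88* lie farthest to the right on the left panel, and all 27 Cfap genes lie above 0.

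The genes listed under other symbols are mostly parts of the motile axoneme, and their median was above that of the 21 cilium genes tested. Of the 39 that could be tested, 34 had a log2 fold change above 0 and the median log2 fold change was 0.36. The share of all genes tested above 0 was 58.8%. The 18-month samples lay above the 3-week samples in 21 of the 39 and below them in 1, against 20.9% and 12.2% of all genes, and 18 were higher at an unadjusted p under 0.05, against 15.4%. The counts of higher genes include *Cfap99* and *Dnah11*, which reached 1 FPKM in 18-month samples only. These genes passed the filter through that age, so that only a higher level at 18 months was possible. All 27 Cfap genes had a log2 fold change above 0, from 0.12 to 1.17. *Cfap46*, a central pair protein, was the one gene of the 39 that passed the study's limits and the one with an adjusted p under 0.05, against 3.9% and 4.92% of all genes. It was at 4.31, 3.62 and 4.05 FPKM at 18 months and at 1.56, 1.14 and 0.9749 at 3 weeks, and it rose by 1.17 ± 0.14 on the log2 scale (SE, n = 3 per age, limma adjusted p = 0.0155). The Drc genes tested, *Drc1* and *Drc3* of the nexin-dynein regulatory complex, had log2 fold changes of 0.65 and 0.80 (limma adjusted p = 0.105 and 0.0651). The dynein heavy chains were low, and only 5 of 13 passed the filter, among them *Dnah12* at 1.66 ± 0.17 and 0.903 ± 0.21 FPKM (SD, n = 3). The 5 genes below 0 were *Dnaaf2* at -0.50, *Ift22* at -0.46, *Dnaaf5* at -0.21, *Dnah9* at -0.12 and *Dnah7a* at -0.10, and none had an unadjusted p under 0.05. Of the 4 assembly factors (Dnaaf) tested, 2 were above 0 and 2 below. The difference between the 2 sets was not tested, and both were read in the same 6 samples.

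Neighbouring parts of the ciliary machinery were read from lists. Of 13 tested genes for other axonemal dynein, docking and assembly proteins, 3 rose with an adjusted p under 0.05, against 2.51% of all genes tested, none fell, and the median log2 fold change was 0.25. These were *Dnaic2*, an outer arm intermediate chain, at 11.4 ± 1.13 FPKM at 18 months and 5.31 ± 0.72 at 3 weeks (SD, n = 3, limma adjusted p = 0.0245), *Iqca* at 9.44 ± 1.00 and 4.83 ± 0.36 (SD, n = 3, limma adjusted p = 0.0267), and *Ttc25*, an outer arm docking protein, at 4.39 ± 0.58 and 2.202 ± 0.35 (SD, n = 3, limma adjusted p = 0.0496). The calls of this list fell to between 0 and 2 when any 1 sample was left out. The assembly factor *Dyx1c1* passed the study's limits, as did 1.83% of all genes in this direction, at 4.34 ± 0.22 and 1.26 ± 0.94 FPKM (SD, n = 3, log2 fold change 1.31, limma adjusted p = 0.0643). In the list of ciliogenesis regulators, *Fank1* rose from 2.82 ± 0.38 to 5.19 ± 0.04 FPKM (SD, n = 3, limma adjusted p = 0.0390), and the median of the 8 genes tested was 0.05. The call of *Fank1* was lost when any 1 sample was left out. In the same list *E2f5* was at 6.32 ± 2.55 FPKM at 18 months and 11.7 ± 1.46 at 3 weeks (SD, n = 3, log2 fold change -0.84, limma adjusted p = 0.130). It was named after its values were seen.

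No gene passed an adjusted p under 0.05 in limma in the other lists. Their counts at an unadjusted p under 0.05 stand against 15.4% of all genes that were higher by that measure. For the central pair and radial spoke, 12 genes were tested with a median log2 fold change of 0.41, and 5 were higher at an unadjusted p under 0.05. For the retrograde dynein, kinesin-2 and IFT subunits with other names, 20 genes were tested with a median of 0.19 and 4 were higher by that measure. This list holds *Ift22* under its older symbol *Rabl5*, which is also among the genes listed under other symbols. For BBSome partners and the transition zone, the gate at the cilium's base, 21 genes were tested with a median of 0.16. Of these 18 were above 0, against 58.8% of all genes, and 5 were higher at an unadjusted p under 0.05. For ciliary hedgehog signalling, which runs through the primary cilium, 12 genes were tested with a median of -0.07 and 2 were lower by that measure, against 8.93% of all genes.

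Some lists of cell type markers moved between the ages as well. Of 13 ependymal markers tested, 10 had a log2 fold change above 0, against 58.8% of all genes, and the median was 0.39. Of the 13, 1 rose with an adjusted p under 0.05, *Tm4sf1* (limma adjusted p = 0.0428), against 2.51% of all genes. The summed level of the ependymal markers was 402 to 497 FPKM at 18 months and 299 to 407 at 3 weeks. Of 9 oligodendrocyte markers tested all had a log2 fold change below 0, the median was -1.19 and 7 were lower with an adjusted p under 0.05 against 2.42% of all genes. Of these 7, *Olig2* was listed at 0 in all 3 samples of 18 months and at 10.3, 10.7 and 59.6 FPKM at 3 weeks. *Olig1* was listed at 0 in all 6 samples and *Sox2* in 3 of them, so a listed 0 may not mean a low level. The counts and medians of the marker lists nevertheless include *Olig2* and *Sox2* with their listed 0 values. The summed level of the oligodendrocyte markers was 3850 to 4546 FPKM at 18 months against 20027 to 22229 at 3 weeks. *Mbp* alone was at 1688, 1533 and 1038 FPKM at 18 months and at 14162, 15125 and 15906 at 3 weeks. It was the largest part of the sum at 3 weeks. Of 9 neuroblast markers tested 7 had a log2 fold change below 0, with a median of -0.60, and 4 were lower with an adjusted p under 0.05. Of 10 neural stem cell and progenitor markers tested 9 were below 0, with a median of -0.67, and 2 were lower by that limit. Both counts stand against 2.42% of all genes. Of 8 neuron markers 7 had a log2 fold change above 0, with a median of 0.66 and a summed level of 2457 to 2975 FPKM at 18 months against 1299 to 1922 at 3 weeks. The largest part of this sum at 18 months was *Ppp1r1b*, at 1201, 1460 and 1279 FPKM, against 937, 422 and 401 at 3 weeks. Of 9 microglia markers 5 were above 0 and 4 below, with a median of 0.49 and a range from -1.15 to 1.07. The choroid plexus list had 4 of 12 genes above the filter, with a median of 0.25. Of 8 astrocyte markers tested 6 were above 0, with a median of 0.18, and none passed an unadjusted p under 0.05. Of 6 endothelial markers tested 5 were below 0, with a median of -0.19. At an unadjusted p under 0.05, 2 endothelial markers were lower, against 8.93% of all genes. FPKM values are relative, so the value of one gene depends on the abundance of others. The part of cell type makeup in the cilium gene values was not tested.

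In the single cells 17 of the 26 genes exceeded 1 FPKM in at least 3 of the 22 cells, the limit used here for an expressed gene, against 48.4% of protein-coding genes, and these 17 were Ift or Bbs genes. All 12 Ift genes were among them, and so were *Bbs2*, *Bbs4*, *Bbs5*, *Bbs7* and *Bbs9*. *Tekt3*, *Tekt4* and *Tekt5* were listed at 0 in every cell. *Tekt2*, *Bbs1* and *Bbs12* exceeded 1 FPKM in no cell, with highest values of 0.968, 0.598 and 0.175. *Bbs10* exceeded 1 FPKM in 2 cells. *Foxj1* did so in 2 cells, both Gfap+, at 1.75 and 7.99 FPKM, and *Tekt1* in 1 Prom1+ cell of 24 months, at 8.15 FPKM. The table gives no counts and the study's read totals per cell were not used here, so no limit is given for a listed 0, and the levels of a single cell carry no replicate.

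**Figure D3:**
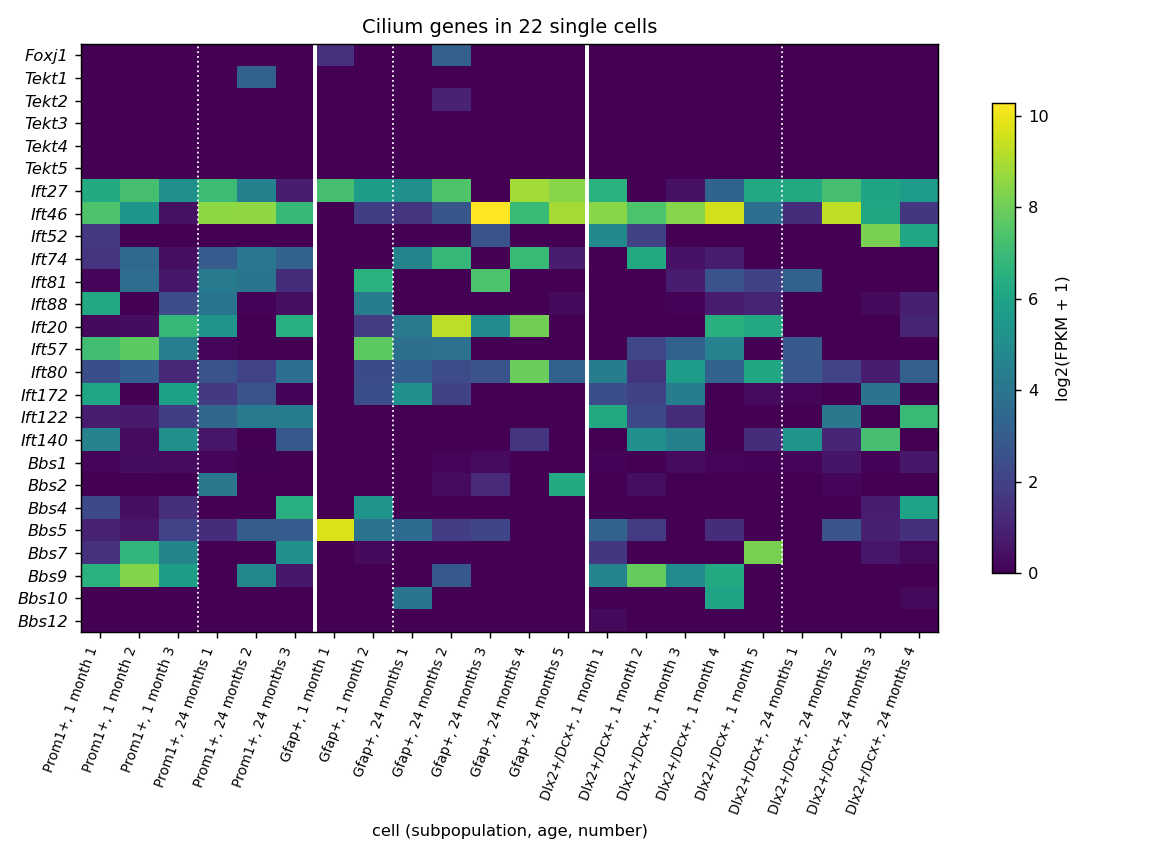
Log2(FPKM + 1) of the 26 cilium genes (rows) in the 22 cells (columns), ordered by subpopulation (solid white lines) and age (dotted lines). *Ift27*, *Ift46* and *Ift80* are filled in most cells, and the rows of *Foxj1* and the tektins are almost empty.

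Of the genes listed under other symbols, mostly of the motile axoneme, 31 of 51 exceeded 1 FPKM in no cell and 13 exceeded it in at least 3 cells. Of all 20208 protein-coding genes in the cell table, 40.2% exceeded 1 FPKM in no cell and 48.4% did so in at least 3 cells. The highest counts among these were those of *Cfap20* with 17 cells, *Cfap36* with 16 and the IFT-A gene *Ift43* with 14. Of the 20 ependymal markers, 11 exceeded 1 FPKM in no cell, among them *Tmem212*, *Enkur*, *Pifo* and *Rsph1*, which were listed at 0 throughout. Of the remaining 9, *Cd24a*, *Vim* and *Tppp3* were the most frequent, and they are also expressed in other cell types. Of the 14 choroid plexus markers, 11 exceeded 1 FPKM in no cell. The genes that name the subpopulations, which also served to select the cells, were read in each cell, and *Prom1* exceeded 1 FPKM in 6 of 6 Prom1+ cells, *Gfap* in 7 of 7 Gfap+ cells and *Dcx* and *Dlx2* in 9 of 9 Dlx2+/Dcx+ cells. *Dlx2* did so in all 7 Gfap+ cells too, and 9 of 12 oligodendrocyte markers exceeded 1 FPKM in each of these 7 cells.

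The most frequent cilium genes were IFT-B genes. *Ift46*, an IFT-B core subunit, exceeded 1 FPKM in 20 of 22 cells and reached 1241 FPKM in a Gfap+ cell of 24 months. It was the highest of the 26 genes in Prom1+ cells, with a mean log2(FPKM + 1) of 6.23, and in Dlx2+/Dcx+ cells, with 6.21. *Ift27*, a small GTPase of the IFT-B core, exceeded 1 FPKM in 18 cells and was the highest in Gfap+ cells, with a mean of 6.13. Its means were 5.18 in Prom1+ and 4.64 in Dlx2+/Dcx+ cells, and that of *Ift46* in Gfap+ cells was 4.63. *Ift80* also exceeded 1 FPKM in 20 cells, but at lower levels, with means of 2.54, 3.07 and 3.31 in Prom1+, Gfap+ and Dlx2+/Dcx+ cells. *Bbs5* exceeded 1 FPKM in 14 cells, and *Ift20* and *Ift172* in 11 each.

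Levels of one gene varied widely between cells of the same group. In the 3 Prom1+ cells of 1 month *Ift46* was at 170, 43.0 and 0.387 FPKM, and in those of 24 months at 368, 382 and 118. In the 5 Gfap+ cells of 24 months it was at 2.03, 5.73, 1241, 123 and 479 FPKM. *Bbs5* was at 841 FPKM in 1 Gfap+ cell of 1 month, whereas in the other 21 cells it did not exceed 14.3 FPKM. Over the 17 expressed genes the median number of cells above 1 FPKM was 9, which is also the median over all 11332 expressed genes.

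The number of cilium genes above 1 FPKM per cell had a median of 10.5 in Prom1+ cells (8 to 12), 7 in Gfap+ cells (3 to 10) and 8 in Dlx2+/Dcx+ cells (5 to 10). The subpopulations overlapped in this number. The number of all genes above 1 FPKM was also highest in Prom1+ cells, with a median of 6315, against 5415 in Gfap+ cells and 5304 in Dlx2+/Dcx+ cells. The part of detection in the cilium gene numbers was not tested. The Gfap+ cell with the fewest cilium genes, 3, also had the fewest genes in all, 4398. *Ift80* was the one cilium gene above 1 FPKM in every Prom1+ cell, against 18.3% of expressed genes. *Ift46* was the one in every Dlx2+/Dcx+ cell, against 10.3%, and no cilium gene was above 1 FPKM in every Gfap+ cell, against 12%.

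**Figure D4:**
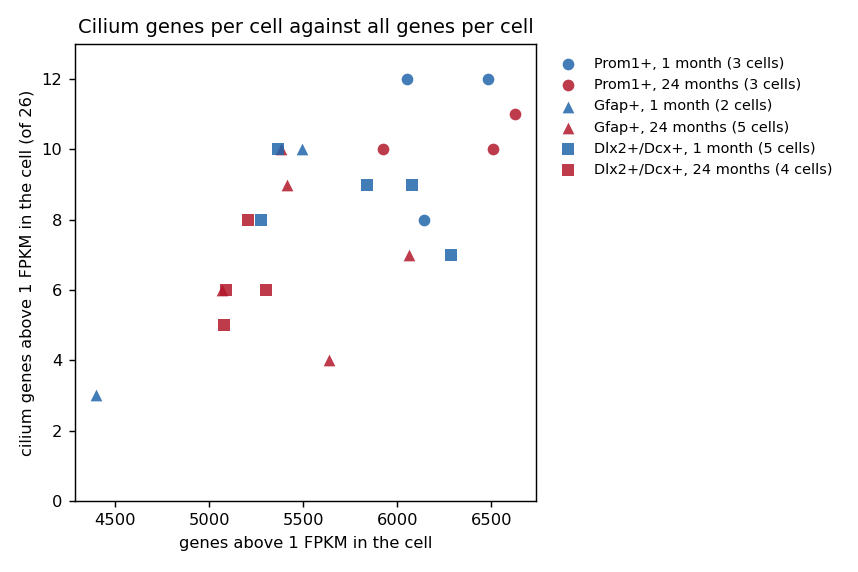
Number of the 26 cilium genes above 1 FPKM (vertical axis) against the number of all genes above 1 FPKM (horizontal axis) in each of the 22 cells, by subpopulation (shape) and age (colour). Prom1+ cells lie to the upper right, with 8 to 12 cilium genes, and 1 Gfap+ cell of 1 month lies at the lower left with 3.

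Individual genes differed between the subpopulations. *Bbs9* had a mean log2(FPKM + 1) of 4.35 in Prom1+ cells, 2.63 in Dlx2+/Dcx+ cells and 0.40 in Gfap+ cells, and it exceeded 1 FPKM in 4 of 6, 4 of 9 and 1 of 7 cells. *Ift122* was listed at 0 in all 7 Gfap+ cells, a pattern found in 6.58% of expressed genes, and it exceeded 1 FPKM in 4 of 6 Prom1+ cells and 5 of 9 Dlx2+/Dcx+ cells. *Ift20* was most frequent in Gfap+ cells, where it exceeded 1 FPKM in 5 of 7 and its mean was 4.03. These differences were not tested, since no animal is named for any cell and each subpopulation and age was therefore treated as 1 sample.

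The comparison of 24 months with 1 month within each subpopulation was likewise a description. A gene was set apart where its mean log2(FPKM + 1) differed by more than 1 and the cells of the 2 ages did not overlap. In Prom1+ cells 1 cilium gene was set apart as higher at 24 months and 2 as lower, against 3.32% and 3.68% of the 11332 expressed genes. *Ift122* was at 0.773, 0.665 and 2.77 FPKM in the cells of 1 month and at 9.42, 17.4 and 19.6 in those of 24 months. *Ift57* was at 138, 205 and 20.03 FPKM at 1 month and at 0.108, 0 and 0 at 24 months. *Bbs9* was at 92.5, 330.3 and 53.4 FPKM at 1 month and at 0, 25.7 and 0.594 at 24 months. In each of these genes all 3 cells of one age lay on one side of all 3 cells of the other.

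In Gfap+ cells 1 cilium gene was set apart as higher and 1 as lower at 24 months, against 2.56% and 2.79% of expressed genes. *Ift80* was at 0 and 3.97 FPKM in the 2 cells of 1 month and between 4.16 and 242 in the 5 cells of 24 months. *Bbs5* was at 841 and 14.3 FPKM at 1 month and between 0 and 11.1 at 24 months, so that the highest old cell and the lower young cell lay close together. In Dlx2+/Dcx+ cells no cilium gene was set apart, against 1.58% of expressed genes. The median age difference of the 17 expressed cilium genes was 0.59 in Prom1+ cells, 0.21 in Gfap+ cells and -0.30 in Dlx2+/Dcx+ cells, against 0, 0.16 and -0.14 over all expressed genes. In Gfap+ cells it was 0 with a pseudocount of 0.1, with medians in place of means and without the first, the second or the fourth cell of 24 months, and 0.57 without the second cell of 1 month. In Dlx2+/Dcx+ cells it was 0 with medians, -1.18 with a pseudocount of 0.1, -0.57 without the first cell of 1 month and -0.05 without the fourth. The direction in Prom1+ cells was not stable, since the median was -0.57 with a pseudocount of 0.1, 0 with medians in place of means and -0.44 without the third cell of 24 months. It was 0 without the first cell of 24 months and 0.06 without the third cell of 1 month.

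Tissue and cells were read at different ages and in tables made separately, so levels were not compared across them. Side by side, *Foxj1* had the highest mean level of the tested cilium genes in the tissue and exceeded 1 FPKM in 2 of 22 cells. *Tekt5*, at 8.72 FPKM over the 6 tissue samples, was listed at 0 in every cell. *Ift57*, which was set apart as lower at 24 months in Prom1+ cells, had a log2 fold change of 0.17 in the tissue with overlapping ages (limma adjusted p = 0.540).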

How the data were processed

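RNA was measured in 6 tissue samples and 22 single cells. The authors deposited FPKM values, 1 column per sample or cell, after alignment to GRCm38 with HISAT2 and estimation with StringTie, and featureCounts is also named in the submitters' processing notes. Versions, annotation release and strand setting are not given in the sources used here. No fragment counts were used. From the steps between low FPKM values, of which 56.9% to 59.8% lay within 0.02 of a whole step, the tissue samples held an estimated 18400000 to 22100000 fragments, which limits precision near 1 FPKM. In the cells 13.0% to 21.5% of low values lay on the best step, and no depth was taken from it. The study's read totals per cell were not used here.

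Samples were grouped by their labels. For the tissue, log2(FPKM + 1) values entered limma 3.58.1 (R 4.3.3), with lmFit and a trended eBayes, over all 12287 genes with at least 1 FPKM in at least 3 samples, with Benjamini-Hochberg adjustment. The study gives n as 3 per age group and the labels name no animals, and p-values measure the spread between these samples. Cells were described and not tested, with Python 3.11.15, pandas 2.3.3 and matplotlib 3.10.9.

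Positions came from GENCODE M21 by identifier, since 12.8% of the matched positions in the cell table overlapped GRCm38. All genes were accounted for by family, and those chosen for naming include *Foxj1*, the highest 2 and the largest change of each family, genes past a limit, and in cells the most frequent, the highest 3 per subpopulation and those set apart by age, while others were described with their family. Companion and marker lists were written by hand. The genes and lists were chosen with earlier results of these data known. Alternatives were a pseudocount of 0.1, no filter, TPM scaling, quantile normalization, the replicate number as a block, medians, a detection limit of 0.1 FPKM and each sample or cell left out. Adding the genes listed under other symbols was chosen after seeing the data.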

Additional observations from a re-analysis of the deposited data

Results flagged for a closer look

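In groups of 4 or 5 cells Dixon's ratio was read 24 times, for levels of cilium genes and for the number detected per cell. At the 95% level 3 values, all levels of single genes, stood apart from the rest of their group. Chance flags about 1 in 20 groups of normally distributed values, a rate that does not hold where most cells are at or near 0, as for *Ift172* and *Ift20* here. *Ift172* in the third Dlx2+/Dcx+ cell of 24 months had a log2(FPKM + 1) of 3.97 and the other 3 cells of this group were near 0. *Ift20* in the fourth Dlx2+/Dcx+ cell of 24 months was at 1.05 on this scale, the one cell of its group with a value above 0. *Ift80* in the fourth Gfap+ cell of 24 months was at 7.92, which is 242 FPKM. It is also one of the genes set apart by age in Gfap+ cells.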

How the results depend on the processing

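In the tissue no cilium gene had an adjusted p under 0.05 under any alternative with the 26 genes, including each sample left out, and the median of the tested genes stayed above 0. Under a pseudocount of 0.1 and under TPM scaling 1 gene, *Ift80*, passed the study's limits, at log2 fold changes of 1.23 and 1.19, and leaving out samples gave 0 to 1 such genes and a median of 0.17 to 0.30, highest without the first 18-month sample. With the genes listed under other symbols added, 1 of 60 genes passed the study's limits, 1 had an adjusted p under 0.05 and the median was 0.33. TPM scaling moved the median of all genes to 0.13 and quantile normalization to 0.03. Differences near 0 turned direction, under TPM scaling *Ift46* (0.0257) and *Ift52* (0.0282) and under quantile normalization *Ift74* (-0.00265) and *Tekt2* (-0.0671). With samples left out the ranges spanned 0 for *Foxj1* (-0.174 to 0.0481), *Ift20* (-0.211 to 0.0139), *Ift46* (-0.11 to 0.10), *Ift52* (-0.24 to 0.12), *Ift74* (-0.13 to 0.30) and *Tekt2* (-0.0164 to 0.0234). Leaving out a sample moved others by over 1.5 times without a change of direction, *Ift57* (0.08 to 0.30), *Ift140* (0.11 to 0.25), *Bbs2* (0.12 to 0.34), *Bbs12* (0.14 to 0.35), *Tekt4* (0.20 to 0.47) and *Tekt5* (0.04 to 0.22). The causes were not tested.

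Genes with an adjusted p under 0.05 among ciliogenesis regulators numbered 0 with no filter, 0 with the replicate block and 0 with any sample left out. For the other axonemal dynein list they numbered 0 with the replicate block and 0 to 2 with a sample left out, and for BBSome partners 0 to 1. Samples with the same number did not deviate together (correlations of -0.0963, -0.0107 and -0.098), and the replicate block took all genes with an adjusted p under 0.05 from 605 to 17 and the cilium genes with an unadjusted p under 0.05 from 5 to 2. Over all genes, a pseudocount of 0.1 gave 765 calls at the study's limits against 479, and leaving out a sample gave 94 to 613 adjusted calls.

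In cells a detection limit of 0.1 FPKM gave a median of 14 cilium genes per Prom1+ cell and 10 per Dlx2+/Dcx+ cell, and adding the genes listed under other symbols gave 17.5, 12 and 13 in Prom1+, Gfap+ and Dlx2+/Dcx+ cells. Leaving out a cell gave 10 to 11, 6.5 to 8 and 7.5 to 8. The median age difference in Prom1+ cells was 0 with medians, -0.57 with a pseudocount of 0.1 and -0.44 to 0.93 with a cell left out. In Dlx2+/Dcx+ cells it was 0 with medians and -1.18 with a pseudocount of 0.1 and -0.57 to -0.05 with a cell left out, and in Gfap+ cells it was 0 to 0.57 with a cell left out.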
